A study of Mus musculus with 3 samples.

Results

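The comparison set 2 stable lines of NMuMG cells against each other, clone 10 minus clone 4, both made to express FLAG-tagged MAFK. NMuMG cells are mammary epithelium of the mouse. The study measured total RNA on 3 Affymetrix arrays, and the 2 arrays of the MAFK lines were used for the difference. The remaining array held mock cells, and it served only to say which of the clones lay away from mock. Per the labels, mock cells carried the pCAGIP vector, and clones 4 and 10 carried pCAGIP-FLAG-MafK in the same vector. All 3 cultures were kept in puromycin, and 100 ng of RNA was labelled from each. Each clone is a single line with 1 array, so a difference belongs to these arrays, no replicate error can be given and no test was made. Mock is not labelled as a clone. The labels state neither the species of the MafK sequence nor whether the cultures were grown and extracted together.

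MAFK is one of the small MAF proteins, leucine zipper factors that bind DNA but have no activation domain of their own. As homodimers, or with BACH partners, they repress genes at MAF recognition and antioxidant response elements, and with NRF2 or other cap'n'collar partners they activate them. A line grown out of a single transfected cell carries its own insertion and copy number of the transgene and its own history of culture, which is why clones of one construct are usually examined side by side.

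Values are log2 expression per probe set after RMA, a procedure that corrects background, sets the arrays to one distribution and summarises the probes of a set. A difference of 1 is 2-fold. Genes were taken from probe sets with 1 gene symbol, the set with the highest mean standing for a gene with several, which left 19935 genes of 28815 probe sets. The array medians were 6.89 for mock, 6.92 for clone 4 and 6.93 for clone 10, and the median of all values was 6.91. The labelled cell type was checked against its markers. Krt8 and Krt18, keratins of simple epithelia, read 13.67 and 11.95 in mock cells, 13.18 and 10.92 in clone 4, and 13.31 and 11.08 in clone 10. Of the other epithelial markers, Epcam stood at 5.58 on each array and Cldn7 between 6.40 and 6.45, both below the array median. Cdh1 read 11.35 in mock cells but 6.85 in clone 4 and 6.64 in clone 10, below that median in both clones. Of the few markers picked for other types, the 4 endothelial ones read at most 6.29 and the 4 immune ones at most 6.97. The 4 myoepithelial ones read at most 7.65 and the 5 fibroblast ones at most 8.0. These ceilings hold for the picked markers only. Longer lists of such genes also held higher values, among them Flt1 at 9.78 in clone 4. In mock cells Cd14 read 9.69, Itga6 9.44 and Vim 13.39. None of the picked markers of the 5 types was 2-fold apart between the clones. On the longer lists, S100a4 was 2.14-fold and Col6a1 2.12-fold higher in clone 10, and Tspan8 was 2.55-fold and Lcn2 2.43-fold lower. In RNA from a whole culture, fewer cells of a type and less RNA per cell cannot be told apart.

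The Mafk probe set hardly separated the arrays. Mafk read 8.49 in mock cells, 8.74 in clone 4 and 8.59 in clone 10, so that clone 10 lay 1.10-fold below clone 4. Whether the probe set reads the transcript of the introduced sequence was not tested, so it does not check the labels. Cdh1, the epithelial cadherin, read 11.35 in mock but 6.85 in clone 4 and 6.64 in clone 10. Gpnmb, a transmembrane glycoprotein, read 6.82 in mock cells, 12.31 in clone 4 and 12.46 in clone 10. For both genes the clones lay far from mock and close to each other. Hmox1, the haem oxygenase that BACH1 and small MAF proteins repress, stood at 8.56 on all 3 arrays. Of the 13 measured MAF and cap'n'collar factors, 1 was 1.2-fold apart, Maff, another small MAF, at 8.46 in clone 4 and 8.18 in clone 10. Maf, a large MAF protein, read 8.09 in mock cells, 11.28 in clone 4 and 11.06 in clone 10.

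Clone 10 and clone 4 differed little over most genes. The difference was within 1.2-fold for 18709 genes (93.9%), and its SD over genes was 0.16 on the log2 scale. At 1.2-fold or more, 2.97% of all genes were higher and 3.18% lower in clone 10. Among the 10810 genes whose higher clone value reached the array median, these shares were 4.85% and 5.37%. The shares over all genes given beside the lists below are thus lowered by genes of low signal. The summarised value was identical in both clones for 11062 genes (55.5%), while 4253 read higher and 4620 lower in clone 10, with a median difference of 0. Identical summarised values do not show that the RNA was equal. At 2-fold or more, 44 genes (0.221%) were higher and 44 (0.221%) lower in clone 10. All of these 88 genes (0.441%) are protein coding. At 3-fold, 7 (0.0351%) were higher and 8 (0.0401%) lower, 15 in all (0.0752%), and at 1.5-fold 156 (0.783%) were higher and 135 (0.677%) lower. For scale, 753 genes (3.78%) of clone 4 lay 2-fold or more from mock, 305 (1.53%) above it and 448 (2.25%) below. In clone 10 there were 715 (3.59%), with 291 (1.46%) above and 424 (2.13%) below. Both of these comparisons share the mock array. The genes just outside the 2-fold limit were Npdc1 at 1.99-fold higher and Pdzk1ip1 at 1.99-fold lower. Just inside it were Zcchc24 at 2.01-fold higher and Bcat1 at 2.01-fold lower. In 29 of the 88 genes the lower clone read below the array median, and Mrgprb2 was below it in both clones.

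**Figure D1:**
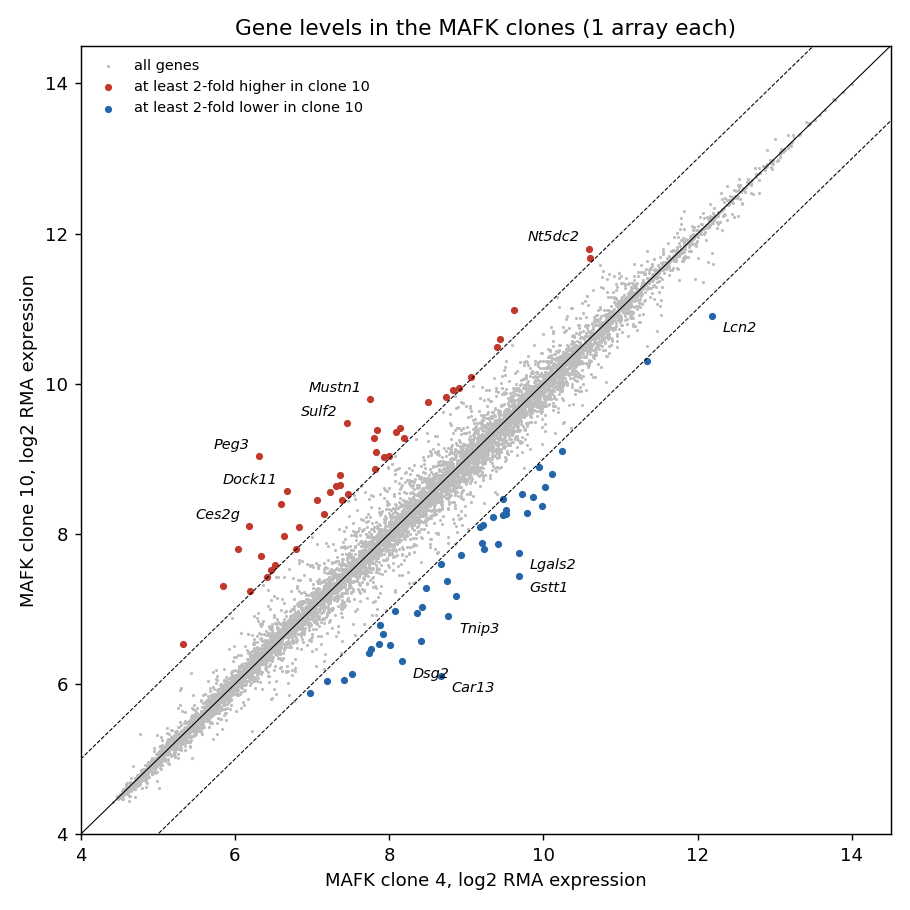
Each point is 1 of the 19935 genes, with log2 RMA expression in clone 4 on the x axis and in clone 10 on the y axis. Points lie along the diagonal apart from the 44 genes at least 2-fold higher and the 44 at least 2-fold lower in clone 10, which are coloured and lie on or outside the dashed 2-fold lines.

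Set against mock, the genes that separated the clones fell into a few patterns. In 39 of the 88, both clones lay at least 2-fold from mock on the same side, 16 above and 23 below, so the clones differed in how far they lay from it. Clone 4 alone lay 2-fold from mock for 27 genes, 14 of them below mock and 13 above. Clone 10 alone did so for 14 genes, 10 above and 4 below. For 7 genes neither clone reached 2-fold from mock, and for 1, Peg3, the clones lay on opposite sides of it. Clone 4 was the clone farther from mock for 53 genes and clone 10 for 35.

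**Figure D2:**
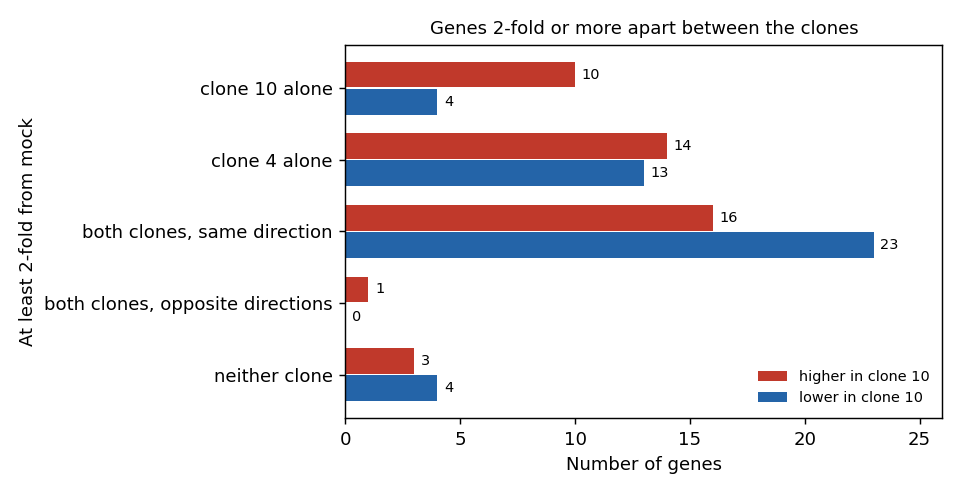
The bars count (x axis, number of genes) the 44 genes at least 2-fold higher and the 44 at least 2-fold lower in clone 10 than in clone 4, by which clone lay at least 2-fold from the mock array. The longest bars are those of genes with both clones on the same side of mock, 16 higher and 23 lower in clone 10, and the single gene with the clones on opposite sides is Peg3.

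Peg3, an imprinted gene for a zinc finger protein expressed from the paternal copy, held the largest difference between the clones. It read 7.76 in mock cells, 6.31 in clone 4 and 9.04 in clone 10, which is 6.63-fold higher in clone 10. Clone 4 lay below mock and clone 10 above. Among the 34 imprinted genes measured, Peg3 was the 1 gene 2-fold apart, and Impact and Dcn were the others higher by at least 1.2-fold. Impact, an inhibitor of the GCN2 kinase, read 8.86 in clone 4 and 9.38 in clone 10. Dcn, a small matrix proteoglycan, read 5.76 and 6.06, both below the array median and both below the 7.88 of mock.

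Genes of transcription and chromatin lay on both sides. Mustn1, a small nuclear protein of muscle and skeletal tissue, read 7.37 in mock cells, 7.76 in clone 4 and 9.80 in clone 10, 4.12-fold higher in clone 10, with clone 4 near mock. Aff2, a nuclear protein of the AF4 family, read 6.47, 7.37 and 8.79 in the same order, 2.68-fold higher in clone 10. Trps1, a GATA-type repressor, instead read 8.50 in mock cells and 7.71 in clone 10 but 6.34 in clone 4. Its second probe set differed in the same direction, at 5.52 in clone 4 and 6.61 in clone 10. Scmh1, a Polycomb group protein, likewise read 8.23 in mock cells, 6.83 in clone 4 and 8.09 in clone 10. Here clone 4 was the one away from mock. Mta3, a subunit of the NuRD complex, read 9.96, 8.90 and 9.94 by its brighter probe set, but 6.47 in both clones by the other, so its difference rests on 1 of its 2 probe sets. In the other direction, Mef2c, a MADS box activator, read 6.56 in mock cells, 9.18 in clone 4 and 8.09 in clone 10. Myrf, a membrane-anchored transcription factor, read 11.22, 9.52 and 8.32, and was lowest in clone 10. Nr4a2, an orphan nuclear receptor, read 8.42, 9.35 and 8.22, within 2-fold of mock in both clones.

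Cell adhesion genes separated the clones singly, and most members of the junction lists lay within 1.2-fold. Dsg2, a desmosomal cadherin, read 8.06 in mock cells, 8.16 in clone 4 and 6.30 in clone 10, 3.62-fold lower in clone 10 alone. The 3 other members of the 16-gene desmosome list that were 1.2-fold apart read higher in clone 10. Pkp2, a plakophilin, read 7.09 in clone 4 and 7.59 in clone 10, Perp 8.81 and 9.26, and Dsp, the desmoplakin that ties desmosomes to keratin filaments, 9.70 and 9.99. All 3 were below mock in both clones. Of 40 genes of epithelial adhesion and junctions, 1 (2.5%) was at least 1.2-fold higher and 4 (10.0%) lower, against 2.97% and 3.18% of all genes. Among all genes whose higher clone value reached the array median, 4.85% were higher and 5.37% lower. The 4 lower members, Cgn, Crb3, Pard6b and Lsr, reached that median, and the higher one, Cdhr1, did not. None of 21 keratins was 1.2-fold apart. Many members of both lists read below that median in both clones, so lack of a difference there says little.

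Outside the junction lists, Pcdh18, a protocadherin, read 5.75 in mock cells, 7.23 in clone 4 and 8.56 in clone 10, and Nectin1, an immunoglobulin-like adhesion molecule, 6.60, 7.39 and 8.45. For both, clone 10 was the highest array and mock the lowest. Pcdh7, another protocadherin, ran the opposite way at 9.77, 8.47 and 7.27. Itga1, the alpha subunit of a collagen-binding integrin, read 6.79 in mock cells, 8.74 in clone 4 and 7.38 in clone 10. Fermt1, the kindlin that helps activate integrins in epithelia, read 8.19, 7.92 and 6.67. Gja1, the gap junction protein connexin 43, read 10.40 in mock cells, 6.47 in clone 4 and 7.52 in clone 10, so it was far below mock in both clones and 2.08-fold higher in clone 10.

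Sulf2, an extracellular enzyme that removes sulphate groups from heparan sulphate, read 10.77 in mock cells, 7.45 in clone 4 and 9.47 in clone 10, 4.06-fold higher. Sdc2 and Sdc3 are syndecans, membrane proteins that carry those chains. Sdc2 read 8.13 in mock cells, 7.80 in clone 4 and 9.28 in clone 10, and Sdc3 read 8.13, 9.39 and 10.49. Clone 10 held the highest value of the 3 arrays for both syndecans, while for Sulf2 it lay between clone 4 and mock. Hapln1, a link protein of hyaluronan and proteoglycans, read 5.55, 7.88 and 6.78, lower in clone 10.

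Of 39 mesenchymal and fibroblast genes, 10 (25.6%) were at least 1.2-fold higher in clone 10 and 3 (7.69%) lower. The shares over all genes were 2.97% and 3.18%. The median difference of the list was 0.03, against 0 over all genes. Col6a1 and Col6a2, chains of type VI collagen, read 8.74 and 8.04 in clone 4 and 9.82 and 8.93 in clone 10, with 10.61 and 9.91 in mock. S100a4, a calcium-binding protein used as a fibroblast marker, read 11.57 in mock cells, 8.82 in clone 4 and 9.92 in clone 10. For these genes clone 10 was nearer to mock. Loxl1, which cross-links elastin, read 6.82, 8.49 and 9.34, and Fstl1, a secreted follistatin-like protein, 5.93, 9.06 and 9.57. There clone 10 was farther from mock. Among the 10, clone 4 was farther from mock for 6 and clone 10 for 4, so the higher readings do not lie on one side of mock. The 3 lower members were Ccn2, a matricellular target of YAP, at 11.52 in clone 4 and 10.92 in clone 10, Tnc at 7.97 and 7.67, and Col1a2 at 8.0 and 7.72. Of the 5 fibroblast markers, Col1a2 was thus 1.21-fold lower in clone 10, and Col1a1, Col3a1, Pdgfra and Lum were within 1.2-fold.

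Proteases of the matrix gave a similar count. Of 26 metalloproteinases and inhibitors, 5 (19.2%) were at least 1.2-fold higher and 1 (3.85%) lower, against 2.97% and 3.18% of all genes. Mmp14, a membrane-bound collagenase, read 10.51 in mock cells, 8.63 in clone 4 and 9.20 in clone 10. Timp3, an inhibitor bound to the matrix, read 7.23, 7.70 and 8.23. Mmp13, a secreted collagenase, was far below mock in both lines, at 10.31, 5.77 and 5.49. Of 23 transcription factors of epithelial-mesenchymal transition, 1 was 1.2-fold apart, Snai1, at 8.41 in clone 4 and 8.75 in clone 10. None of the 42 genes of the TGF-beta and BMP list was 2-fold apart. Of that list 5 were at least 1.2-fold higher and 4 lower, where all genes had 2.97% and 3.18%. Smad9, a BMP-regulated SMAD, was the one furthest apart, at 6.70 in clone 4 and 7.53 in clone 10.

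**Figure D3:**
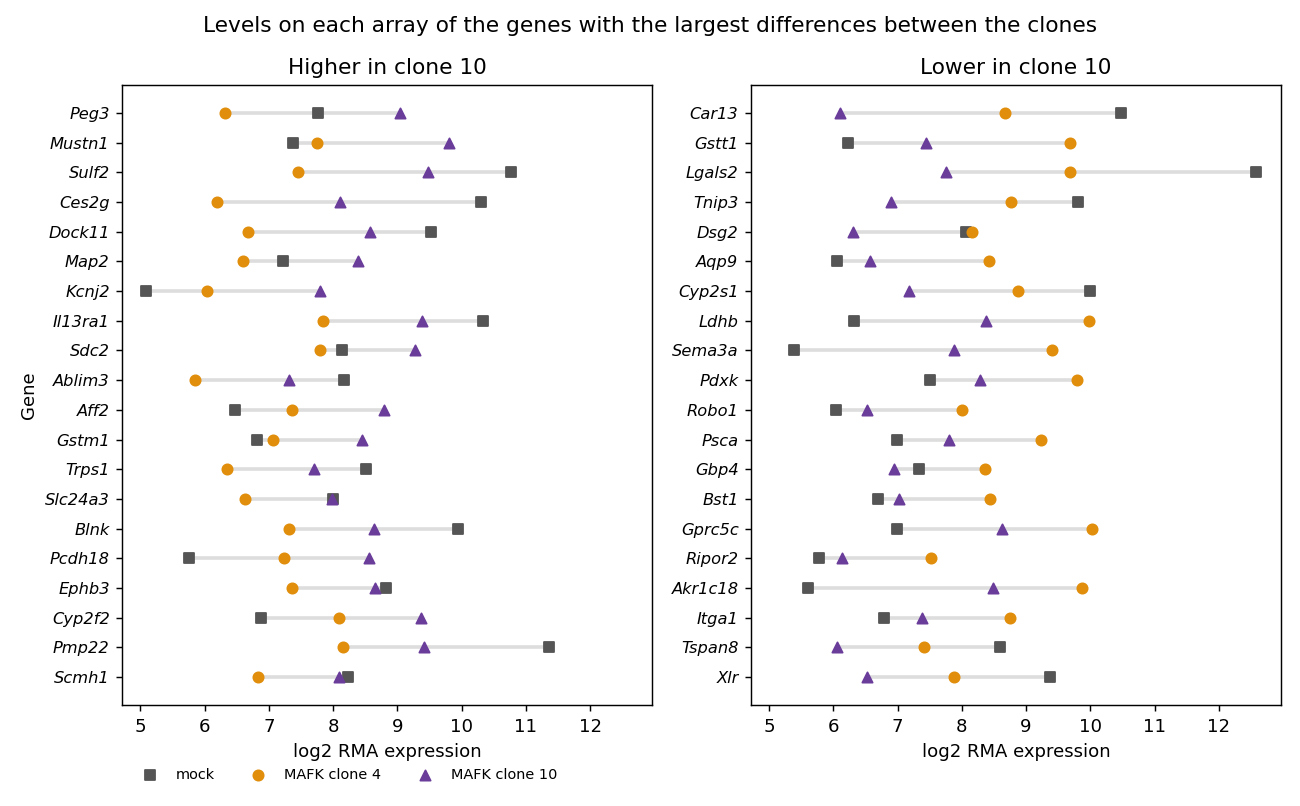
Log2 RMA expression (x axis) in mock (square), clone 4 (circle) and clone 10 (triangle) for the 20 genes with the largest increase and the 20 with the largest decrease in clone 10 against clone 4, leaving out predicted genes. Mock lies outside the span of the clones for most genes, and inside it for Peg3 and Map2, among others.

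None of the 43 actin, contractile and YAP target genes was 2-fold apart. At 1.2-fold, 4 (9.30%) were higher and 3 (6.98%) lower, against 2.97% and 3.18% of all genes. Outside that list, Map2, a microtubule-associated protein best known from dendrites, read 7.21 in mock cells, 6.60 in clone 4 and 8.39 in clone 10, 3.47-fold higher. Dock11, an exchange factor for CDC42, read 9.53, 6.67 and 8.57, 3.74-fold higher. Ablim3, an actin-binding LIM protein, read 8.18, 5.84 and 7.31. Pfn2, a profilin, read 6.68, 7.83 and 9.09. For Dock11 and Ablim3 clone 4 lay farther below mock, whereas for Pfn2 clone 10 lay farther above it. For Map2 clone 4 lay below mock and clone 10 above.

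Guidance cues and growth factor receptors made up a further group. Sema3a, a secreted semaphorin, read 5.39 in mock cells, 9.41 in clone 4 and 7.87 in clone 10, 2.91-fold lower in clone 10. Robo1, a receptor for SLIT ligands, read 6.04, 8.01 and 6.52, and Slit2, a ligand of it, 6.23, 7.15 and 6.31. Ligand and receptor were thus both above mock in clone 4 and close to mock in clone 10. The plexin Plxna2 and the neuropilins Nrp1 and Nrp2, which form semaphorin receptors, differed in the other direction. Plxna2 read 10.04, 8.50 and 9.24, Nrp2 read 10.30, 9.05 and 9.67, and Nrp1 read 11.03, 9.93 and 10.29. Ephb3, a receptor for ephrin-B ligands, read 8.82 in mock cells, 7.36 in clone 4 and 8.65 in clone 10. Over the 49 ephrin and guidance genes, 6 (12.2%) were at least 1.2-fold higher and 7 (14.3%) lower, against 2.97% and 3.18% of all genes. The list thus had no single direction.

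Of 57 growth factors and receptor kinases, 4 (7.02%) were at least 1.2-fold higher and 10 (17.5%) lower in clone 10. The shares over all genes were 2.97% and 3.18%. The 2 members that were 2-fold apart were both lower. Fgfr2, a receptor tyrosine kinase for fibroblast growth factors, read 9.15 in mock cells, 10.24 in clone 4 and 9.10 in clone 10, so clone 10 stood at the level of mock. Fgf13, an intracellular relative of those factors, read 9.17, 8.07 and 6.97. Vegfa read 9.23, 10.02 and 9.37, and its receptor Flt1 read 7.56, 9.78 and 9.18. Both were highest in clone 4. Of other receptors and their regulators, Il13ra1, a subunit of the receptors for IL-13, read 10.33 in mock cells, 7.85 in clone 4 and 9.38 in clone 10. Lrp1, an endocytic receptor, read 10.97, 8.50 and 9.75. Socs2, a feedback inhibitor of cytokine and growth hormone signalling, read 8.40, 11.35 and 10.31, with its second probe set 0.96 lower in clone 10 on the log2 scale. Gprc5c, an orphan receptor, read 6.99, 10.03 and 8.62 and was lower in clone 10 by both of its probe sets.

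Glutathione transferases and cytochromes lay on both sides within one family. Gstt1, a theta-class glutathione transferase, read 6.22 in mock cells, 9.68 in clone 4 and 7.45 in clone 10, 4.71-fold lower in clone 10. Gstm1, of the mu class, read 6.81, 7.07 and 8.46, 2.62-fold higher. Its relative Gstm2 read 10.20, 7.07 and 7.87, while Gstm5 of the same class read 9.54, 9.37 and 8.88. Members of the mu class are similar in sequence, and cross-hybridisation between them was not tested. Over the 53 NRF2 and antioxidant genes, 9 (17%) were at least 1.2-fold higher and 5 (9.43%) lower, against 2.97% and 3.18% of all genes. The median difference of the list was 0. Gclm, a subunit of the enzyme that limits glutathione synthesis, read 11.56 in mock cells, 11.07 in clone 4 and 11.41 in clone 10. Slc7a11, the cystine importer that feeds that synthesis, read 7.84, 6.70 and 5.85, lower in clone 10.

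Among cytochromes P450 and related enzymes, 3 of 46 (6.52%) were at least 1.2-fold higher and 6 (13%) lower. The shares over all genes were 2.97% and 3.18%, and over genes whose higher clone value reached the array median 4.85% and 5.37%. Cyp2s1 read 10.00 in mock cells, 8.87 in clone 4 and 7.18 in clone 10, 3.24-fold lower. Cyp2f2, a P450 of the lung, read 6.88, 8.09 and 9.36, 2.42-fold higher. Ces2g, a carboxylesterase, read 10.31, 6.19 and 8.11, 3.78-fold higher in clone 10 and below mock in both clones. Cyp4a12a read 6.55, 7.74 and 6.42 and Cyp4a12b 6.36, 7.20 and 6.04. These 2 genes are near-identical copies, so their probes cannot tell them apart with certainty and the pair may be 1 signal.

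Several enzymes of metabolism were furthest from mock in one clone. Car13, a cytosolic carbonic anhydrase, held the largest decrease, at 10.47 in mock cells, 8.67 in clone 4 and 6.11 in clone 10, 5.90-fold lower in clone 10. Car5b, a mitochondrial carbonic anhydrase, instead read 11.74, 9.06 and 10.09, so clone 4 was the lower of the clones. Ldhb, a lactate dehydrogenase subunit, read 6.33, 9.98 and 8.37. Its second probe set was lower in clone 10 as well, with a difference of -1.02 on the log2 scale. Pdxk, which makes pyridoxal phosphate, read 7.51, 9.79 and 8.28. Akr1c18, an aldo-keto reductase that inactivates progesterone, read 5.61, 9.86 and 8.49. Ldhb, Pdxk and Akr1c18 read far above mock in clone 4 and less far in clone 10. Rbp4, the carrier of retinol, read 11.77, 9.72 and 8.53. Neither the 25 ribosomal protein genes nor the 33 genes of the respiratory chain had a member 1.2-fold apart. The 38 genes of glycolysis and hypoxia had 2 higher and 2 lower, where all genes had 2.97% and 3.18%.

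Genes of the unfolded protein and amino acid response formed the list with the largest share on one side. The part of this response run by ATF4 raises amino acid import, amino acid synthesis and one-carbon metabolism when amino acids are short or protein folding is strained. Of its 42 measured genes, 18 (42.9%) were at least 1.2-fold lower in clone 10 and none higher, against 3.18% and 2.97% of all genes. Among all genes whose higher clone value reached the array median, 5.37% were lower and 4.85% higher. The median difference was -0.17 on the log2 scale, where all genes had 0. With genes of chromosomes 6, 14, 17 and 19 left out, 14 of 34 were lower and the median stayed at -0.17. Sizes were mostly modest, and 2 genes were 2-fold lower, Chac1 and Mthfd2.

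Chac1, which degrades glutathione, read 9.08 in mock cells, 9.20 in clone 4 and 7.88 in clone 10, 2.5-fold lower. Mthfd2, the mitochondrial folate enzyme, read 9.66, 9.95 and 8.90, 2.07-fold lower. Asns, the asparagine synthetase, read 11.77, 12.07 and 11.36. In all 3 clone 4 was slightly above mock and clone 10 below it. Of the transporters, Slc7a5 read 11.89, 11.53 and 11.11, Slc3a2, its partner chain, 12.70, 12.52 and 12.23, and Slc7a1, for cationic amino acids, 9.99, 10.52 and 9.99. Of the synthetic enzymes, Psat1 of serine synthesis read 12.14, 11.97 and 11.39, Gpt2, an alanine aminotransferase, 8.87, 9.38 and 8.56, and Shmt2 10.73, 10.81 and 10.37. Atf4 itself read 9.28 in mock cells, 9.27 in clone 4 and 8.99 in clone 10. Over the 18 genes, clone 10 was below mock for 15, whereas clone 4 was above it for 9 and below it for 8, and clone 10 was the farther from mock for 13.

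**Figure D4:**
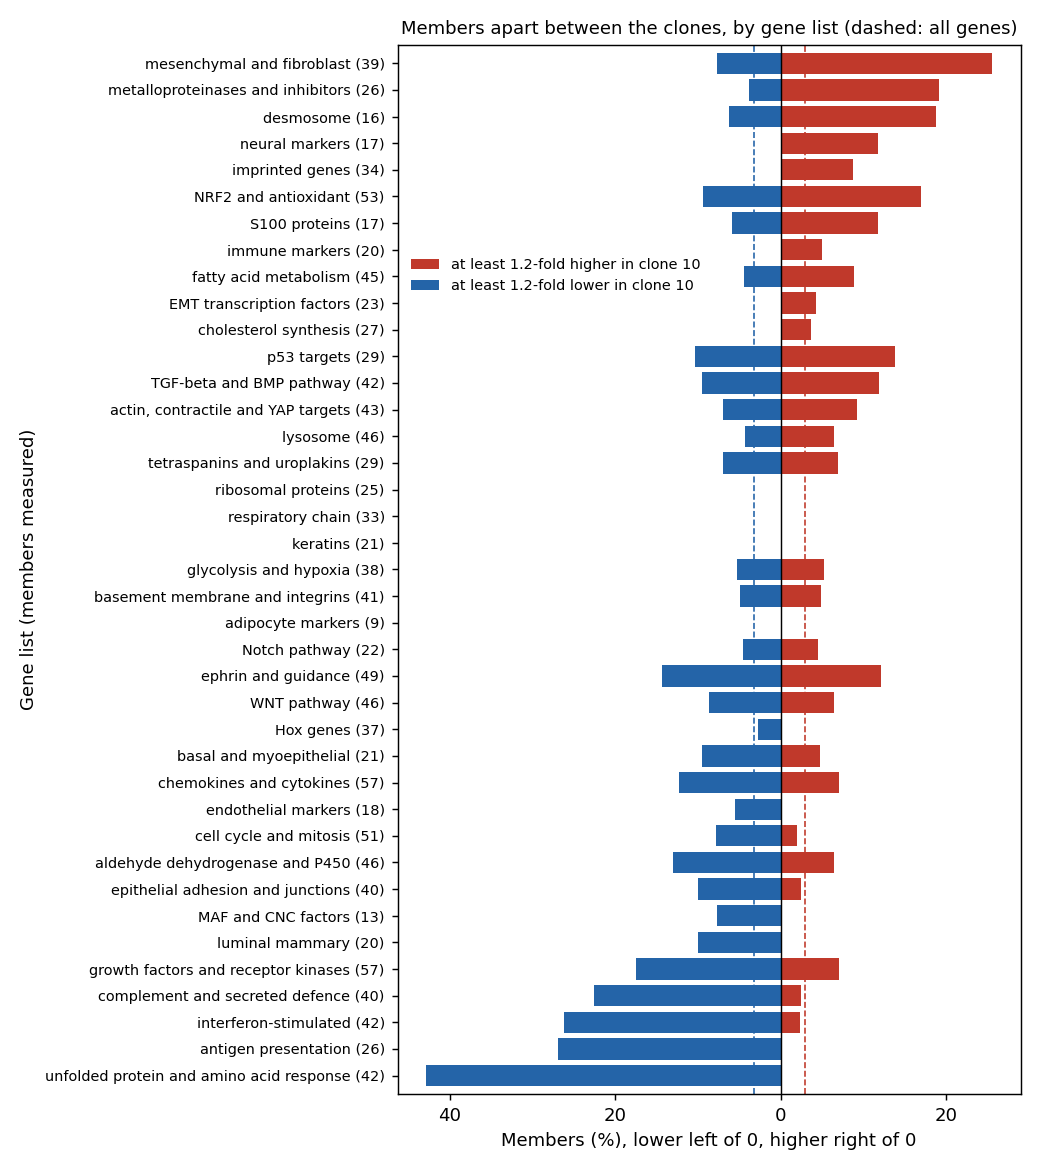
Share of the measured members of each of 39 gene lists, in percent, that were at least 1.2-fold higher (right of 0) or lower (left of 0) in clone 10 than in clone 4, with the number measured in brackets. The dashed lines mark all genes, 2.97% and 3.18%, and the longest bar is the 42.9% of the unfolded protein and amino acid response.

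Lists of innate defence also held more lower than higher members in clone 10. Of 42 interferon-stimulated genes, 11 (26.2%) were at least 1.2-fold lower and 1 (2.38%) higher, against 3.18% and 2.97% of all genes. Gbp4, a guanylate-binding GTPase, read 7.34 in mock cells, 8.36 in clone 4 and 6.95 in clone 10, 2.67-fold lower. Ifih1, the RNA sensor MDA5, read 5.74, 7.84 and 7.01. Rtp4 read 7.57, 7.56 and 6.65, with clone 4 close to mock and clone 10 below it. Against mock, clone 4 was above it for 5 of the 11 genes and below it for 5. Clone 10 was above mock for 3 of them and below it for 7. Irgm1, an immunity-related GTPase, was the 1 higher member, at 8.46 in clone 4 and 8.88 in clone 10. Ifitm1, a membrane protein that restricts virus entry and is not on that list, read 6.93, 7.16 and 8.27, higher in clone 10 by both of its probe sets.

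Of 26 genes of antigen presentation, 7 (26.9%) were at least 1.2-fold lower in clone 10 and none higher. The shares over all genes were 3.18% and 2.97%. Clone 4 was above mock for all 7. Cd274, the checkpoint ligand PD-L1, read 7.52 in mock cells, 8.34 in clone 4 and 7.36 in clone 10. Cd74, the invariant chain of class II, read 5.89, 7.83 and 7.28. The class I genes H2-M2 and H2-Q4 read 7.96 and 8.63 in clone 4 and 6.99 and 8.0 in clone 10. These genes belong to a family with many similar copies, and how far their probes share signal was not tested. Most of the list lies on chromosome 17, and 1 of 9 members was lower when genes of chromosomes 6, 14, 17 and 19 were left out. For the interferon-stimulated list the same step left 10 of 35 lower and 1 higher.

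Of 40 genes of complement and secreted defence, 9 (22.5%) were at least 1.2-fold lower in clone 10 and 1 (2.5%) higher. The shares over all genes were 3.18% and 2.97%. Lcn2, a siderophore-binding lipocalin, read 10.16 in mock cells, 12.19 in clone 4 and 10.90 in clone 10, 2.43-fold lower. The mucins Muc4 and Muc1 read 7.79 and 8.61 in clone 4 and 7.09 and 8.01 in clone 10, with 6.21 and 7.26 in mock. Clone 4 held the highest value of the 3 arrays for each of these. Tnip3, an inhibitor of NF-kappa-B signalling, read 9.81, 8.77 and 6.90, 3.64-fold lower in clone 10, and Plac8 read 10.74, 7.77 and 6.47. In both of them clone 10 was the lowest array. Lgals2, a galectin, read 12.59, 9.68 and 7.75, 3.82-fold lower. Blnk, an adaptor of B-cell receptor signalling, differed the other way at 9.94, 7.31 and 8.64. Of 57 chemokines and cytokines none was 2-fold apart. At 1.2-fold, 4 (7.02%) were higher and 7 (12.3%) lower, against 2.97% and 3.18% of all genes. Il1rn, the antagonist of the IL-1 receptor, was furthest, at 8.79, 9.03 and 8.06.

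Transporters and surface proteins completed the genes with large differences. Kcnj2, an inwardly rectifying potassium channel, read 5.09 in mock cells, 6.04 in clone 4 and 7.80 in clone 10, 3.39-fold higher. Slc24a3, a sodium-calcium exchanger, read 7.99, 6.63 and 7.98, with clone 10 at the level of mock. Aqp9, a channel for water and glycerol, read 6.06, 8.42 and 6.57, 3.60-fold lower in clone 10. Psca, a surface antigen anchored by GPI, read 6.98, 9.23 and 7.79, and Bst1, a surface enzyme that forms cyclic ADP-ribose, 6.69, 8.43 and 7.02. Here clone 4 was the one above mock. Tspan8, a tetraspanin, read 8.60, 7.41 and 6.06. Pmp22, a membrane protein of myelin and epithelia, read 11.36, 8.15 and 9.42, so it was far below mock in both clones and 2.41-fold higher in clone 10. Galnt3, which starts O-linked glycans, read 7.80, 10.11 and 8.79. Of 46 lysosomal genes 3 were at least 1.2-fold higher and 2 lower, where all genes had 2.97% and 3.18%. Among genes whose higher clone value reached the array median, the shares were 4.85% and 5.37%. The lysosomal genes apart included the proteases Ctsc at 7.35 in clone 4 and 8.07 in clone 10 and Ctsz at 10.26 and 9.49.

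Because MAFK binds DNA at known elements, the bases before the start of the genes that separated the clones were read from RefSeq promoters of GRCm38.p6. The 250 bases upstream of the start were searched on both strands, and 69 of the 88 genes matched, with 91 promoters. The core of the antioxidant response element, TGACNNNGC, was present in 5 of those 91 (5.49%) and in 3338 of all 32851 promoters (10.2%). A single arm of the MAF recognition element, TGCTGAC, was in 3 (3.30%) and in 3.81% of all. TGACTCA, the AP-1 core that also lies within a longer MAF element, was in 6 (6.59%) and in 4.46% of all. The shares among these genes therefore lay below those of all promoters for TGACNNNGC and TGCTGAC and above for TGACTCA. Counts were 6 or fewer, and the differences were not tested. The full palindromic MAF recognition element of the TPA type was in 1 promoter of all and in none of these 91. A match describes letters and is not a bound site.

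The promoters of 3 genes named above are shown because each holds at least 1 of these motifs and both clones lay at least 2-fold below mock. As they were picked by their side of mock, they do not stand for the other genes with a motif. They are Gja1 (chr10:56377050-56377299, plus strand), Lrp1 (chr10:127621149-127621398, minus strand) and Plac8 (chr5:100572206-100572455, minus strand), printed 5′ to 3′ on the strand of the gene with the motif in capitals. In Gja1 the capitals mark TGCTGAC and TGACTCA, both read on the opposite strand, and in Lrp1 and Plac8 they mark TGACNNNGC, also on the opposite strand.
Gja1: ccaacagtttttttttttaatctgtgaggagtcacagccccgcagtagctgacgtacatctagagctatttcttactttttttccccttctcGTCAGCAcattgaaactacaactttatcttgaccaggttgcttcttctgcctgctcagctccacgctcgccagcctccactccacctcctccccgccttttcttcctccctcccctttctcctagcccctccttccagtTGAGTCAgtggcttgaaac
Lrp1: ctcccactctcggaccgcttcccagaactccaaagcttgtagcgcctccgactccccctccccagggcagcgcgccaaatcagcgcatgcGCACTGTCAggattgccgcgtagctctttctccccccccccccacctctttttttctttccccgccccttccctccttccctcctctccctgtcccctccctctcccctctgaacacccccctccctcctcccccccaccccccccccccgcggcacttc
Plac8: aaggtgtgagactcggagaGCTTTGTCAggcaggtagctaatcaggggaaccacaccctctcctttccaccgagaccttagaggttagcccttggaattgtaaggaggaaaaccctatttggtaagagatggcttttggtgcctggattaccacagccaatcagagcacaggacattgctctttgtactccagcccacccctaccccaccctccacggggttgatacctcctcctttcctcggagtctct

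Differences between the clones also followed the chromosomes. Of 698 genes on chromosome 14, 100 (14.3%) were at least 1.2-fold higher in clone 10 and 5 (0.716%) lower. Chromosomes 19 and 17 ran the other way, with 72 of 675 genes (10.7%) and 78 of 936 (8.33%) lower, and 0.741% and 0.534% higher. On chromosome 6, 67 of 1099 genes (6.10%) were lower and 12 (1.09%) higher. Chromosome 3 had 7.42% higher and 4.24% lower. All other chromosomes had at most 4.91% of genes higher and at most 3.46% lower. With genes below the array median in both clones left out, the median difference on the log2 scale was 0.10 for chromosome 14, -0.04 for chromosome 6, -0.03 for chromosome 17 and -0.04 for chromosome 19. The 5 chromosomes held 23 of the 88 genes 2-fold apart (26.1%), near their share of all genes, 4351 (21.8%).

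On chromosome 3 the genes higher in clone 10 lay side by side. Genes were put in the order of the RefSeq table for GRCm38.p6, keeping those whose higher clone value reached the array median, and the median difference was taken over each 25 neighbours. Above 1.2-fold, these medians marked a single stretch of chromosome 3, from Pcdh18 to E130311K13Rik, which held 72 genes, 41 of them at that level. All 41 read higher in clone 10, 36 of them (87.8%) by at least 1.2-fold, and their median difference was 0.57 on the log2 scale. The smallest was 0.06 and the largest, that of Pcdh18, 1.32. Against mock the same genes had a median of 0.19 in clone 4 and 0.74 in clone 10. Over the other 458 genes of the chromosome at that level, 25 were at least 1.2-fold higher, 35 were lower and the median was 0.

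The genes of that stretch do unlike things. Foxo1, a forkhead factor of insulin signalling, read 8.61 in mock cells, 9.08 in clone 4 and 9.97 in clone 10. Wwtr1, the YAP partner TAZ, read 9.80, 10.10 and 10.76. Setd7, a lysine methyltransferase, read 9.88, 10.18 and 11.16. Selenot, a selenoprotein of the endoplasmic reticulum, read 10.36, 10.73 and 11.58, Commd2 read 9.32, 9.51 and 10.30, and Ndufc1, a subunit of respiratory complex I, 10.17, 10.74 and 11.29. For each of these clone 10 was the highest array and clone 4 lay between it and mock. Pcdh18, Spg20, Tm4sf1 and Pfn2, all 2-fold higher in clone 10, lie in the stretch, as does Smad9. Tm4sf1, a tetraspanin-like protein, read 12.41 in mock cells, 10.60 in clone 4 and 11.67 in clone 10, below mock in both, and Spg20, the spartin of lipid droplets, read 8.49, 9.44 and 10.60.

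Chromosome 14 had one such stretch, from Appl1 to Dph3, with 48 genes and 32 at that level. Of these 32, 23 (71.9%) were at least 1.2-fold higher in clone 10 and none was lower by that much. Their median difference was 0.32, and against mock it was -0.32 for clone 4 and 0.05 for clone 10, so here clone 4 was the clone away from mock. Mustn1 and Nt5dc2, both 2-fold higher in clone 10, lie within it. Over the remaining 331 genes of that chromosome at that level, 74 were at least 1.2-fold higher and 5 lower, with a median of 0.08. Against mock, these 331 genes had a median of -0.27 in clone 4 and -0.12 in clone 10. Clone 4 thus lay below mock outside the stretch as well. Chromosome 19 had short stretches of lower genes around Smarca2, Jak2, Cd274 and Il33, the longest with 10 genes at that level, of which 6 were at least 1.2-fold lower and the median was -0.31. No other chromosome had a stretch past 1.2-fold. The stretches were picked for their values, so the counts inside them describe the choice. The number of copies of these regions in each line was not measured here.

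**Figure D5:**
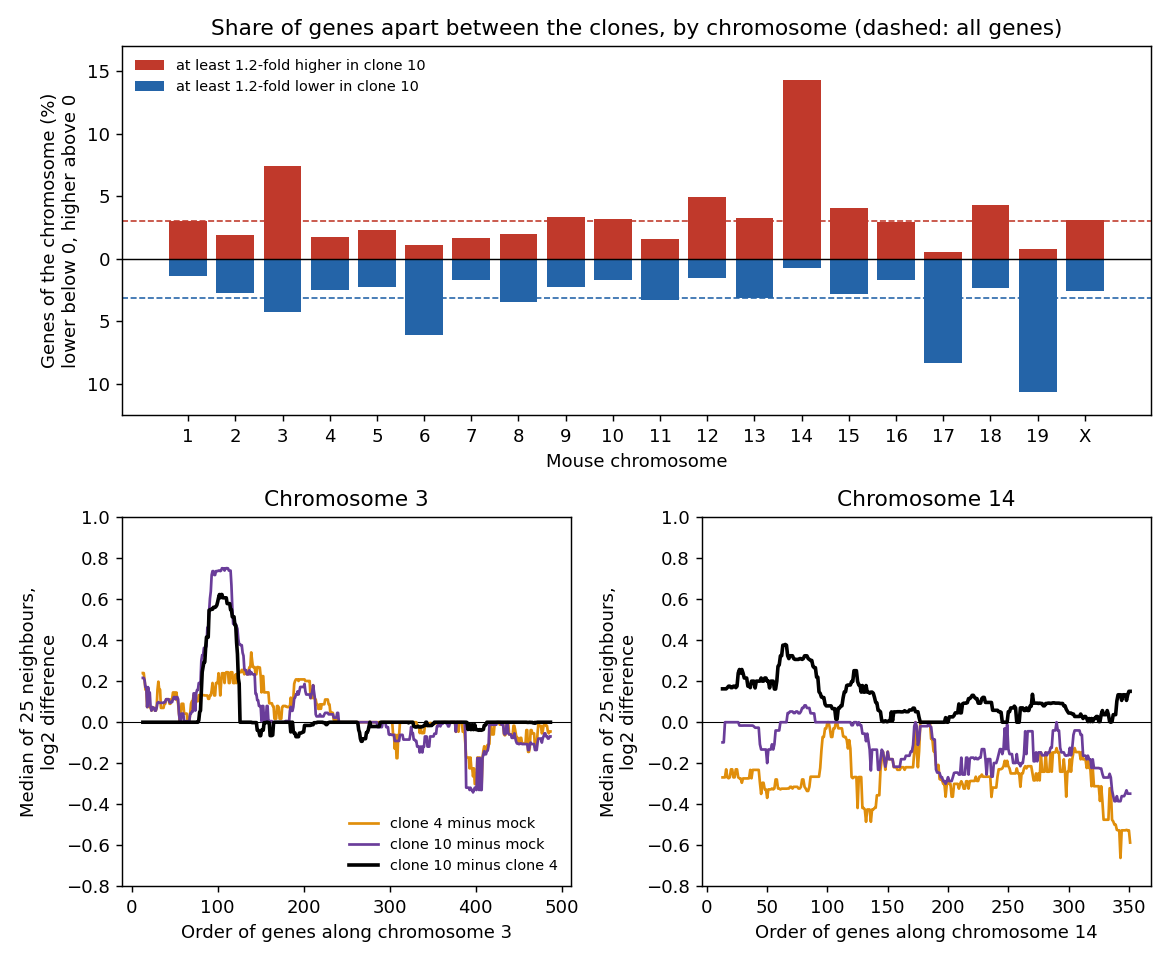
The upper plot gives the percent of genes on each mouse chromosome at least 1.2-fold higher or lower in clone 10 than in clone 4, with dashed lines for all genes. The lower plots give the running median over 25 neighbouring genes along chromosomes 3 and 14, as log2 differences, where the chromosome 3 stretch peaks at 0.62 and the chromosome 14 stretch at 0.38.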

How the data were processed

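RNA of mock, clone 4 and clone 10 was measured on 1 array each. The authors deposited 1 log2 value for each probe set and array. RMA is the tool named in the submitters' processing notes. Its version, annotation and genome build are not given in the sources used here. Of 28815 probe sets, 21780 had 1 gene symbol, 1605 several and 5430 none in the platform annotation of 2016. Of the 21780, 21689 were matched to RefSeq (GRCm38.p6) by Entrez ID and 91 kept the older symbol. Values equal to within 1e-08 counted as identical. Differences were computed in Python 3.11.15 with pandas 2.3.3 and NumPy 2.4.6, with figures in matplotlib 3.10.9, and the steps were tested on simulated data. Named genes were Mafk, Gpnmb, Cdh1, Hmox1, the 25 largest differences each way among genes whose higher clone value reached the array median (predicted genes, receptors of smell and small RNAs left out), and up to 6 members per list at least 2-fold apart. Any other gene named was chosen after its values were seen. The members and the 39 lists (1230 of 1326 symbols matched) were chosen with earlier results of these data known. The number of arrays limits the precision. Alternatives were another normalization, centring, low genes, other probe set rules, other fold limits and chromosomes left out. The 1.2-fold limit for lists and the runs of neighbouring genes were chosen after seeing the data.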

Additional observations from a re-analysis of the deposited data

Results flagged for a closer look

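Peg3 read 7.76 in mock cells, 6.31 in clone 4 and 9.04 in clone 10. The clones were 2.73 apart on the log2 scale. It drew attention because clone 4 lay below mock and clone 10 above it, each by more than 2-fold. With 1 array a clone, the difference was not tested. Peg3 has 1 probe set on the array, so no second reading of it exists here.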

How the results depend on the processing

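The counts of 44 higher and 44 lower genes follow the fold limit, with 156 and 135 genes at 1.5-fold and 7 and 8 at 3-fold. A second quantile normalization gave 46 and 43 genes, with 87 of the 88 shared, centring gave 44 and 44, leaving out low genes 43 and 44, each probe set on its own 46 and 47, and the median of a gene's probe sets 43 and 42. Without chromosomes 8, 14 and X, 35 and 39 genes were left. Without chromosomes 6, 14, 17 and 19, an alternative chosen after seeing the data, 35 and 37 were left, and without chromosome 3 as well, 29 and 36, as fewer genes were compared. Among single genes, Ldhb moved to -1.31 and Gprc5c to -1.21 on the log2 scale with the median of the probe sets. No paired analysis was possible because each group had 1 array and the labels give no replicate numbers. No array could be left out, so how far another culture of either clone would differ is unknown.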

Other observations

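Probe sets with several gene symbols or none were not part of the comparison by gene. Of these 7035, 6 were at least 2-fold apart. The 1 with several symbols, for the surface antigens Ly6c2 and Ly6c1, read 11.52 in mock cells, 8.68 in clone 4 and 9.91 in clone 10, so it was higher in clone 10 and below mock in both clones. The other 5 have no symbol in the platform annotation, and all 5 were lower in clone 10, by 2.06-fold to 2.27-fold.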
